A study of Mus musculus with 28 samples.

Results

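Among the 7 established Fosl-2(Tg) tail tendons of the study, *Col1a1* levels differed by a factor of 23.8 between the highest and the lowest mouse, and the report describes which other genes kept the same order. These 7 of 28 libraries were selected by genotype and cohort and then ordered on a measured value, the *Col1a1* level in CPM (counts scaled to a common library total). The order was therefore chosen by a readout, no severity of disease was graded in the sample labels, and the rank correlations within the 7 mice are given as a description with no test. The 6 WT mice of the established cohort served as reference, and 15 younger mice, 7 WT and 8 transgenic, as animals that the order did not use.

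Bulk RNA-sequencing was performed on tail tendons of C57BL/6 mice, with 1 library per mouse. Fosl-2(Tg) mice carry a randomly inserted vector with the murine *Fosl2* gene and an eGFP reporter, under the broadly active H2Kb promoter (MHC class I), and WT controls were littermates or mice of the same breeding without the vector. Established mice were older than 14 weeks and early mice 6 to 8 weeks old. Of the 7 established Fosl-2(Tg) mice 6 were female and 1 was male (replicate 5), of the 6 WT mice 5 were female and 1 was male (replicate 5), and all 15 early mice were male.

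Tendon is built by tenocytes, fibroblasts that deposit parallel fibrils of type I collagen. The fibril needs 2 kinds of chain, encoded by *Col1a1* and *Col1a2*, which are hydroxylated and folded in the endoplasmic reticulum, trimmed outside the cell by procollagen proteinases and cross-linked by lysyl oxidases. Small leucine-rich proteoglycans bind the fibrils and control their width, and tenocytes are recognised by *Scx*, a transcription factor of the tendon lineage, and by *Tnmd*, a membrane protein that it controls. *Fosl2* encodes a subunit of the AP-1 transcription factor.

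*Col1a1* lies on the plus strand of chromosome 11 (94827050 to 94843868, GRCm39) and has the identifier ENSMUSG00000001506. It was measured in Fosl-2(Tg) mice at 33723 CPM in replicate 4, 31779 in replicate 6, 19557 in replicate 7, 14160 in replicate 2, 12733 in replicate 3, 2704 in replicate 1 and 1418 in replicate 5. The 6 WT mice lay between 48480 and 103178 CPM, with a median of 79776, so that the genotypes did not overlap and the lowest WT mouse was 1.44-fold above the highest Fosl-2(Tg) mouse. Relative to the WT mean of 77921 ± 20184 CPM (SD, n = 6), the 7 mice retained between 43.3% and 1.82% of *Col1a1*. The steps between neighbours were uneven. Replicates 4 and 6 differed 1.06-fold and replicates 2 and 3 by 1.11-fold, steps smaller than those between most neighbours, whereas a 4.71-fold gap set replicates 1 and 5 apart from the other mice. Because whole tissue was sequenced, fewer tenocytes and less *Col1a1* RNA per tenocyte cannot be told apart.

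**Figure D1:**
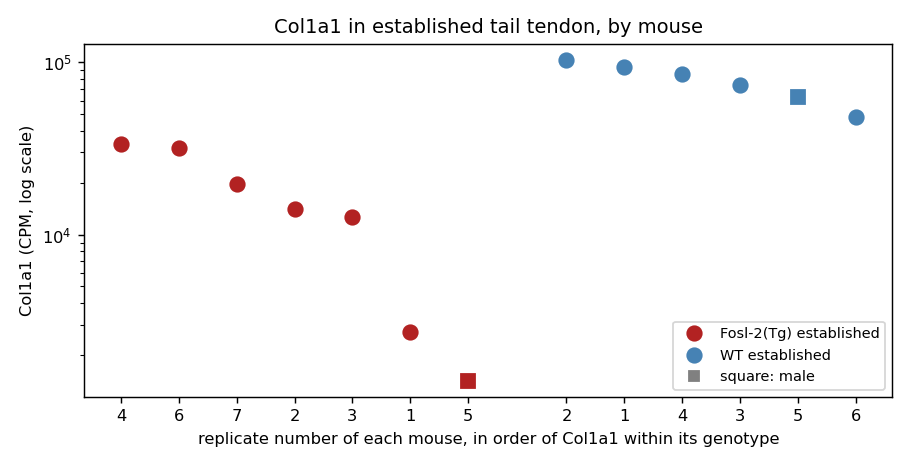
*Col1a1* in CPM on a log scale in each established mouse, ordered within genotype, with squares for the male mice. The 7 Fosl-2(Tg) mice lie between 1418 and 33723 CPM, all below the WT mice, and replicates 1 and 5 stand below a 4.71-fold gap.

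Counts summed over genes ranged from 9664327 to 34236725 in the 7 mice (median 16638405), and 18445 to 19772 genes had a count. The 2 lowest mice had the 2 smallest totals, 10750350 counts in replicate 1 and 9664327 in replicate 5, which still comprised 29073 and 13707 counts of *Col1a1*, so depth did not limit this value. Over the 7 mice, the rank correlation (Spearman's rho) with *Col1a1* was 0.36 for the library total and -0.29 for the number of genes with a count. The male mouse was the lowest of the 7, and sex, depth and place in the order could not be separated for it. The WT male had 62886 CPM and was second from the bottom of its group.

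Of the 12153 other genes with a mean of at least 5 CPM in the 7 mice, 534 followed *Col1a1*, meaning a rho of at least 0.75, which is 4.39% of these genes. In the opposite direction, 2690 genes ran against it at a rho of -0.75 or less, or 22.1%. CPM are shares of a fixed total, so lower shares of some genes go with higher shares of others. The median rho over all 12153 genes was -0.36. With collagen genes left out of the total it was -0.18, and 858 genes followed and 1696 ran against *Col1a1*. The part of collagen in this lean was not tested further. After scaling by TMM, a method that sets the bulk of genes equal, the median was 0.04, 1287 genes followed and 990 ran against *Col1a1*, so that genes that followed were 56.5% of both counts and not 16.6%. Of the 534 genes that followed by CPM, 517 also did so after TMM scaling, whereas of the 2690 genes 978 still ran against *Col1a1*. TMM scaling thus removed few of the 534 genes but raised the number that followed to 1287. Since it moved the median rho upward, few losses among the 534 were largely set in advance. For genes that ran against *Col1a1* the value after TMM scaling is given where it differs. By CPM, the median gene lay above its WT mean by 0.16 (replicate 4) to 0.41 (replicate 1) on the log2 scale in the 7 mice.

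**Figure D2:**
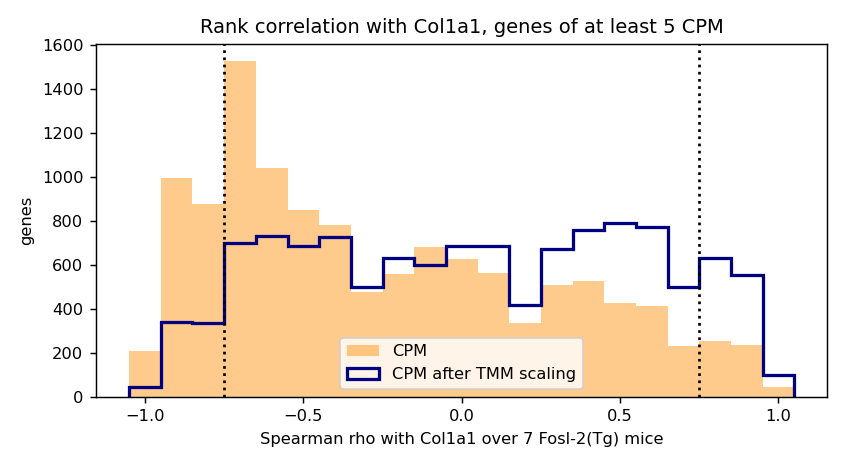
Number of genes by Spearman's rho with *Col1a1* over the 7 mice, for CPM (filled) and for CPM after TMM scaling (line), with dotted lines at the limits of -0.75 and 0.75. The filled distribution leans to negative values, with a median of -0.36, and the line is centred near 0, with a median of 0.04.

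At the upper limit, 104 genes had a rho of exactly 0.75 and 111 genes lay just outside at 0.71, and at the lower limit 613 genes had -0.75 and 492 had -0.71. Most slopes were shallow. Per doubling of *Col1a1*, the median change of the genes that followed was 0.22 log2 units and that of the genes that ran against it -0.13, and 64 and 77 genes had slopes of at least 0.5 in size. Without replicates 1 and 5, 137 of the 534 genes and 897 of the 2690 genes were still past the limits in the remaining 5 mice. All 534 kept a rho above 0 there, a direction that their choice on the same mice largely fixes. Without the male mouse, 311 of the 534 were past the limit. The count itself was 927 without replicate 4 and 870 without replicate 3.

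Fibril-forming collagens made up 5.89% of all counts in replicate 4 and 0.34% in replicate 5, compared with 8.28% to 16.5% in WT mice. Of the 10 members other than *Col1a1* at 5 CPM or more, 6 followed *Col1a1*, none ran against it and the median rho was 0.84, against -0.36 over all genes. Of all genes, 4.39% followed. Without replicates 1 and 5, 2 of the 10 were past the limit, where 2.31% of all genes were. *Col1a2* (chromosome 6 of GRCm39, 4504814 to 4541555, plus strand), the partner chain of the type I fibril, was in exactly the same order, with 22829, 20924, 12260, 9520, 7999, 2911 and 1126 CPM from replicate 4 down to replicate 5, and all 7 mice were below the lowest WT mouse at 31519 CPM. *Col11a1*, a chain of the type XI collagen that nucleates fibrils, ranged from 489 CPM in replicate 6 to 49.5 in replicate 5 (rho 0.96). Not every fibril-forming collagen followed. *Col3a1*, the collagen of thin and of scar fibrils, was at 533, 2252, 3101, 599, 678, 390 and 255 CPM in the same sequence of mice (rho 0.57). Its levels in replicates 6 and 7 were far above those of replicate 4, which had the most *Col1a1*, and the WT mice spanned 515 to 2949 CPM. *Col5a1* also had a rho of 0.57, and both were at -0.20 without replicates 1 and 5.

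Type VI collagen, the beaded network around tenocytes, followed the order with a lesser range. *Col6a1* lay between 1613 CPM in replicate 4 and 230 CPM in replicate 5 (rho 0.93), and *Col6a3* was highest in replicate 7 with 2144 CPM and lowest in replicate 5 with 242 CPM (rho 0.82). *Col15a1*, a collagen of the basement membrane zone, was steeper, from 309 to 9.93 CPM, and every Fosl-2(Tg) mouse was below the WT minimum of 365 CPM. The main basement membrane chains of vessels and nerves, in contrast, held one level in all 7 mice. *Col4a1* lay between 130 and 158 CPM and *Col4a2* between 198 and 244 CPM, within the WT ranges of 90.7 to 166 and 162 to 284 CPM. The sign of their rho changed with the scaling (-0.21 by CPM and 0.32 after TMM scaling for *Col4a1*).

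The genes that process collagen followed it in part. Of 19 hydroxylation and folding genes, 10 followed *Col1a1* and none ran against it (median rho 0.82, median slope 0.27). Without replicates 1 and 5, 3 were past the limit. Of all genes, 4.39% and 2.31% followed in these 2 settings. *Sparc*, a collagen-binding protein that assists procollagen on its way into the matrix, was the steepest of those named here, with 9587, 7224, 4038, 2950, 2897, 1304 and 664 CPM, all below the WT mice (10825 to 18225 CPM). *Serpinh1*, the collagen chaperone HSP47, was at 442, 552, 456, 244, 320, 141 and 150 CPM, so that the 3 mice with the most *Col1a1* lay within the WT range of 416 to 610 CPM and the other 4 below it. *P4ha1*, a prolyl hydroxylase subunit, lay between 430 and 149 CPM (rho 0.93).

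Of 6 procollagen processing genes 3 followed *Col1a1* and none ran against it (median rho 0.70). Without replicates 1 and 5 the count was also 3, but of other members. *Adamts3* entered (rho 0.80, from 0.54 over the 7 mice) and *Bmp1* dropped out (0.60, from 0.86). Of all genes, 4.39% followed over the 7 mice and 2.31% without replicates 1 and 5. *Adamts2*, which cleaves the amino-terminal propeptide of procollagen, was in exact order from 528 to 218 CPM, a 7-mouse range much narrower than that of *Col1a1*, and below all WT mice (574 to 962 CPM). *Pcolce*, an enhancer of the carboxy-terminal cleavage, lay between 692 and 215 CPM (rho 0.93), with WT mice at 764 to 908 CPM. Of 6 cross-linking genes 2 followed (median rho 0.46), and none did without replicates 1 and 5. Of the lysyl oxidases, *Loxl2* followed the order (rho 0.82) and was below the WT minimum of 560 CPM in all 7 mice, at 113 to 431 CPM. *Lox*, the most abundant of this family, did not: its 7 values of 1727 to 3127 CPM overlapped the WT values of 1498 to 2926 CPM, and the mouse with the least *Col1a1* had 2298 CPM. *Creb3l1*, a transcription factor of the endoplasmic reticulum that drives collagen genes in bone, had 201, 134, 112, 94.3, 96.0, 55 and 17.0 CPM (rho 0.96). The general endoplasmic reticulum chaperone *Hspa5* did not reach the limit (rho 0.43), at 180 to 446 CPM. Of all 32 genes of the secretory pathway and endoplasmic reticulum stress, 6 followed *Col1a1* and 3 ran against it (median rho 0.52). After TMM scaling 14 followed and 2 ran against it (median rho 0.70), where 10.8% of all genes followed. Without replicates 1 and 5, 1 of the 32 followed by CPM.

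Genes of tendon identity had the highest median rho of the lists in the plot of list members, 0.89. Of its 12 members at 5 CPM or more, 8 followed *Col1a1* and none ran against it, where 4.39% of all genes followed. Without replicates 1 and 5, 6 were past the limit, where 2.31% of all genes were. *Tnmd* was at 611, 503, 269, 179, 147, 149 and 30.3 CPM, with WT mice between 682 and 1617 CPM. *Scx*, named here after its values were seen, was at 50.7, 69, 62.8, 49.4, 49.6, 23.8 and 9.52 CPM, below the WT range of 73.7 to 109.7 CPM in every mouse. The first 5 mice lay between 49.4 and 69 CPM of *Scx*, while their *Col1a1* differed 2.65-fold. *Mkx*, another transcription factor of tenocytes, had a shallow slope of 0.18, with 291, 377, 244, 236, 240, 234 and 156 CPM (rho 0.93), and only replicate 5 lay below the WT minimum of 201 CPM.

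*Thbs4* and *Comp*, thrombospondins that organise tendon matrix, followed the order although some mice were above the WT range. *Thbs4* was at 4609, 7218, 6954, 2468, 2696, 1795 and 1107 CPM, with 2 mice above and 4 mice below the WT range of 3743 to 6041 CPM. *Comp* lay between 2434 CPM in replicate 6 and 321 CPM in replicate 5 (WT 1124 to 2020 CPM). One gene of the list stood apart: *Htra3*, a secreted serine proteinase, was above all WT mice (217 to 351 CPM) in all 7 mice, at 369 to 804 CPM. It did not reach the limit over the 7 mice (rho -0.43), but its rho was -0.77 without replicate 5 and -0.70 without replicates 1 and 5.

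Small leucine-rich proteoglycans differed in how closely they followed *Col1a1*. Of 11 members, 6 followed it, none ran against it, and the median rho was 0.75, where 4.39% of all genes followed. Without replicates 1 and 5, 2 members were past the limit, where 2.31% of all genes were. *Fmod*, fibromodulin, was in exact order at 25048, 16797, 12842, 12143, 10024, 8814 and 886 CPM. Replicate 1 had 35.2% of the *Fmod* level of replicate 4 but 8.02% of its *Col1a1*, and the largest step in *Fmod* came in replicate 5. *Kera*, keratocan, had the steepest slope of all genes with a rho of at least 0.85, 1.09 log2 units per doubling of *Col1a1*, and lay between 428 CPM in replicate 6 and 5.28 CPM in replicate 5. *Chad*, a collagen- and integrin-binding protein, was at 2289 CPM in replicate 4 and 101 CPM in replicate 5. *Lum*, lumican, named after its values were seen, did not reach the limit (rho 0.61) but was steep, with a slope of 0.80 and values between 26.9 and 986 CPM. *Dcn*, decorin, the proteoglycan with the widest distribution in connective tissue, was nearly level, at 5213 to 7548 CPM within the WT range of 5173 to 10081 CPM. Its slope was 0.07, and its rho was 0.61 by CPM and past the limit, at 0.82, after TMM scaling.

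**Figure D3:**
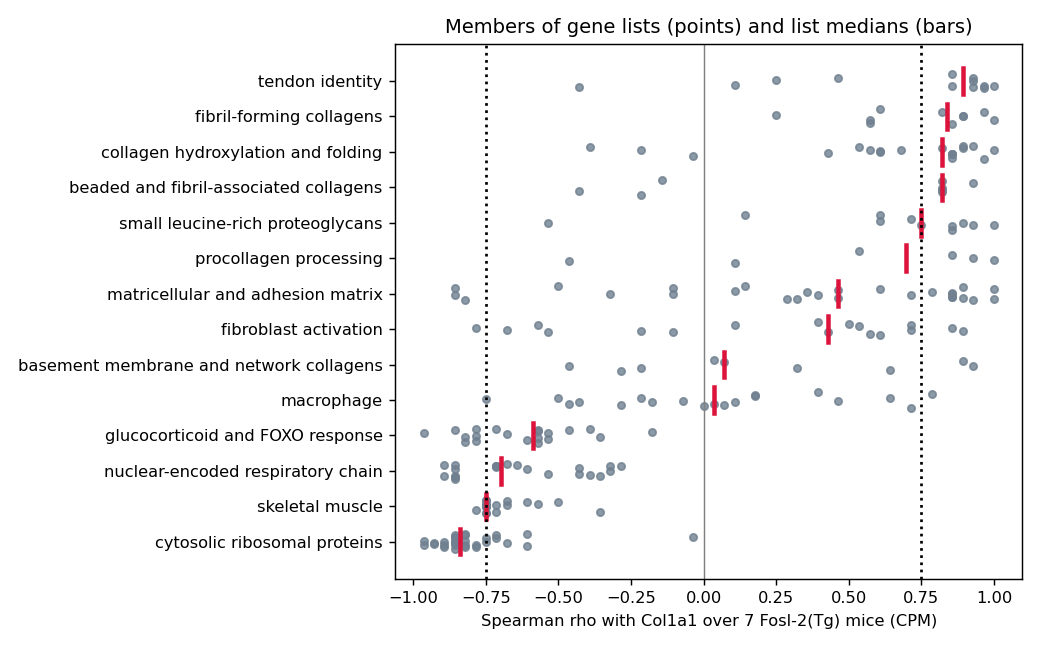
Spearman's rho with *Col1a1* over the 7 mice for each list member with a mean of at least 5 CPM (points) and the list median (bars), with *Col1a1* itself left out and dotted lines at -0.75 and 0.75. The medians run from 0.89 for tendon identity to -0.84 for cytosolic ribosomal proteins, and the macrophage list lies near 0 with a median of 0.04.

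In all, 13 genes were in exactly the order of *Col1a1* (rho 1). Besides *Col1a2*, *Sparc*, *Fmod* and *Adamts2*, these included *Matn2*, a matrix adaptor protein, at 370 to 111 CPM, *Ncam1*, a cell adhesion molecule, at 214 to 91.1 CPM, *Cfb*, complement factor B, at 344 to 29.8 CPM, and *Pdgfrl*, a receptor-like relative of the PDGF receptors, at 101 to 21.1 CPM. *Matn2* and *Pdgfrl* lay below every WT mouse in all 7 mice. *Ncam1* and *Cfb* did so in 6, while replicate 4 was just inside the WT ranges of 211 to 333 and 333 to 539 CPM. *Cfb* overlaps the gene model *Gm20547*, which is also among the 13, so their counts are uncertain. *Prex1*, *Pik3r6* and *Tril* were also in exact order, with shallower slopes of 0.19, 0.30 and 0.30. In the opposite direction, 36 genes were in exact order (rho -1).

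Some of the steepest genes after *Kera* had their highest value in replicate 6 or 7. *Fn1*, fibronectin, was at 2336, 6879, 10024, 1366, 1264, 781 and 161 CPM, with WT mice between 1426 and 4570 CPM, so that replicates 6 and 7 were above and the last 4 mice below the WT range. *Mfap4*, a microfibril-associated glycoprotein, reached 128 CPM in replicate 6 and 2.88 CPM in replicate 1, against 22.9 to 40.8 CPM in WT. *Megf6*, a protein with epidermal growth factor-like repeats, was at 15.3, 108, 47.5, 5.49, 5.33, 4.93 and 0.72 CPM, and only replicates 6 and 7 lay within the WT range of 39.8 to 116 CPM. Replicate 4, which had the most *Col1a1*, was thus not the mouse with the most of these 3 transcripts.

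**Figure D4:**
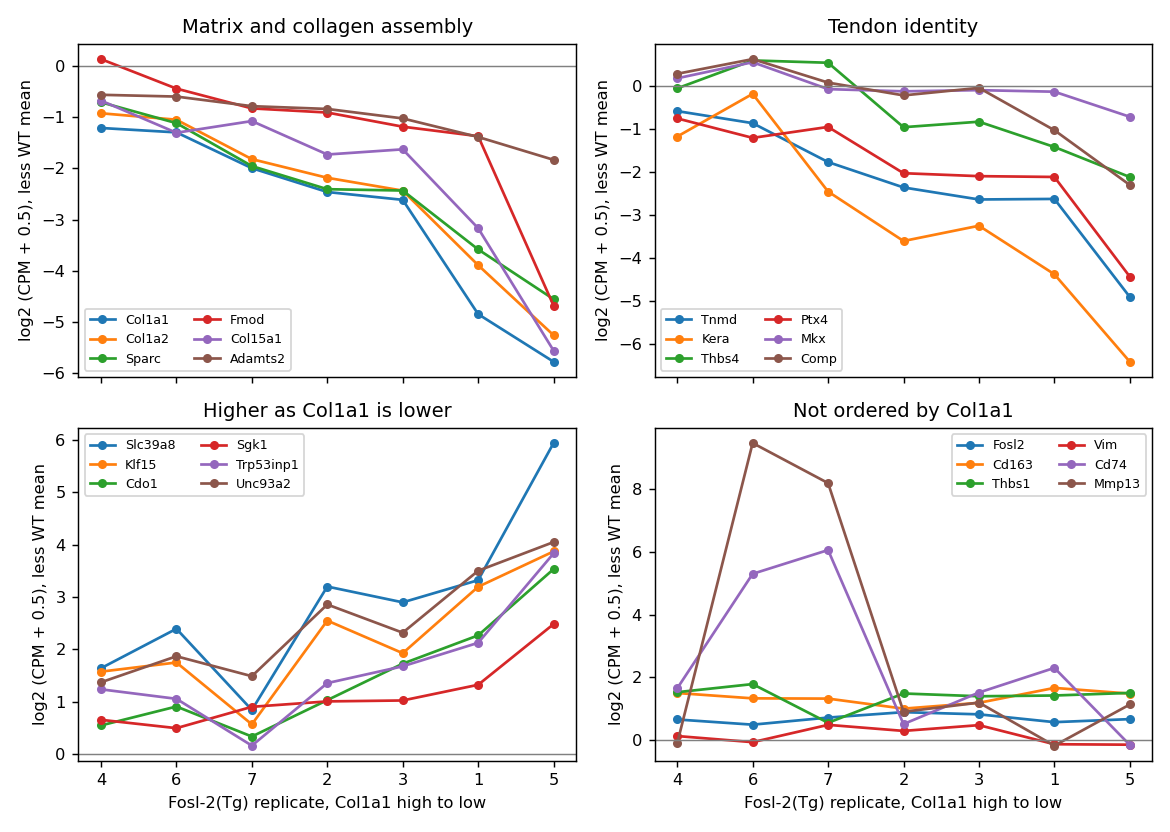
Log2(CPM + 0.5) less that of the WT mean for named genes in the 7 mice, from the highest *Col1a1* on the left to the lowest on the right. Matrix and tendon genes run downward and genes such as *Slc39a8* upward, while *Fosl2*, *Cd163*, *Thbs1* and *Vim* do not follow the order and *Cd74* and *Mmp13* peak in replicates 6 and 7.

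Insulin-like growth factor I (*Igf1*), a growth signal for tenocytes, was among the genes that followed the order, at 207, 352, 306, 128, 108, 119 and 31.5 CPM (WT 175 to 414 CPM). The first 3 mice lay within the WT range and the other 4 below it. Its binding protein *Igfbp4* was at 62.5 to 465 CPM (rho 0.89) and *Igfbp5* at 662 to 3533 CPM (rho 0.89). The receptor *Igf1r* ran the other way, at 273, 258, 247, 312, 354, 371 and 400 CPM, above the WT maximum of 227 CPM in all 7 mice. Its rho was -0.86 by CPM and -0.71 after TMM scaling. By CPM the median gene also lay above its WT mean in these mice. *Igf1r* was not called in the comparison with WT mice described below (FDR 0.0649 by edgeR), and in 1 of 13 fits that left out 1 mouse it was.

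*Slc39a8* (chromosome 3 of GRCm39, 135531040 to 135594333, plus strand), which encodes ZIP8, a membrane importer of zinc and manganese, had the steepest slope of the genes that ran against *Col1a1* with a rho of -0.85 or less, -0.77. It was at 20.7, 35.3, 11.7, 62.1, 50.3, 67.6 and 418 CPM, and all 7 mice were above the highest WT mouse at 8.06 CPM. The value of replicate 5 was 6.18-fold that of the next mouse, and the rho of -0.86 by CPM was the same after TMM scaling and -0.77 without replicate 5. *Klf15*, a transcription factor of fasting and glucocorticoid responses, was at 24.5, 27.7, 11.9, 48.6, 31.4, 76.3 and 122 CPM, with WT mice at 2.20 to 13.3 CPM. Replicate 7 alone overlapped the WT mice.

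*Cdo1*, which degrades cysteine, lay between 9.89 CPM in replicate 7 and 94.9 CPM in replicate 5, with WT mice at 5.84 to 10.2 CPM. *Trp53inp1*, a p53-induced gene linked to autophagy, was at 177, 156, 83.8, 192, 240, 328 and 1074 CPM (WT 41.3 to 105 CPM), with a rho of -0.86 by CPM and -0.75 after TMM scaling. *Dio3*, which inactivates thyroid hormone, was at 1.73 to 25.0 CPM, and *Unc93a2* at 4.27 to 30.0 CPM against a WT maximum of 3.07 CPM. Both had a rho of -0.93 by CPM and -0.86 after TMM scaling. The least *Col1a1*-rich mouse had the highest value of each of these genes, and in *Cdo1*, *Trp53inp1* and *Slc39a8* it stood well apart from the other 6.

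Genes that respond to glucocorticoids and FOXO factors are read here against the 22.1% of all genes that ran against *Col1a1* by CPM, or 8.34% after TMM scaling. Of 20 members, 7 did so by CPM and 3 after TMM scaling, none followed it, all 20 had a rho below 0, and the median rho was -0.59 and -0.50. Without replicates 1 and 5, 1 of 19 members was past the limit by CPM, where 15.4% of all genes were. *Sgk1*, a kinase of salt and stress responses, was at 92.0, 82.3, 109, 118, 119, 147 and 328 CPM (rho -0.96 with both scalings), with 6 mice above the WT maximum of 83.6 CPM. *Fkbp5*, a co-chaperone of the glucocorticoid receptor named here after its values were seen, was at 106, 118, 86.8, 201, 139, 200 and 436 CPM, above all WT mice (33.8 to 74.1 CPM). *Irs2*, an insulin receptor adaptor and FOXO target, lay between 107 and 315 CPM (rho -0.82), and *Txnip* between 805 and 3274 CPM without reaching the limit (rho -0.57, and -0.43 after TMM scaling). The metallothionein *Mt1*, a zinc-binding protein, was at 102 to 240 CPM (WT 37.0 to 87.3 CPM), with a rho of -0.79 by CPM and -0.57 after TMM scaling.

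Cytosolic ribosomal protein genes took up 0.96% of counts in replicate 4 and 1.67% in replicate 5, against 0.59% to 1.10% in WT mice. Of 30 members 24 ran against *Col1a1* by CPM and 10 after TMM scaling, where 22.1% and 8.34% of all genes did. None of the members followed it, and their median rho was -0.84 and -0.61. Without replicates 1 and 5, 4 of 30 members were past the limit by CPM, where 15.4% of all genes were. Of the members, *Rps2* was at 315 to 506 CPM (rho -0.96, and -0.86 after TMM scaling) and *Rpl4* at 547 to 980 CPM, with a rho of -0.86 by CPM that shrank to -0.39 after TMM scaling. Copies of ribosomal protein genes on other chromosomes share sequence with them, so the counts of single members are uncertain. Of the genes in exactly the opposite order, *Ilf2*, an RNA-binding protein of splicing and ribosome assembly, lay between 46.3 and 88.7 CPM and kept a rho of -1 after TMM scaling, whereas *Mtpap*, the mitochondrial poly(A) polymerase, had -0.75 there.

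*Fosl2* itself (chromosome 5 of GRCm39, 32292707 to 32315186, plus strand) did not follow the order. It was at 186, 166, 194, 219, 208, 175 and 187 CPM, a 1.32-fold range across mice whose *Col1a1* differed 23.8-fold. The sign of its rho depended on the scaling, -0.21 by CPM and 0.18 after TMM scaling. Reads from the transgene and from the endogenous gene cannot be told apart here. In the comparison with WT mice described below, *Fosl2* was not called (FDR 0.141 by edgeR). It was called in 1 of 13 fits that left out 1 mouse.

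Some genes lay outside the WT range in all 7 mice. *Cd163*, a scavenger receptor of tissue macrophages, was at 108, 96.0, 95.5, 76.4, 86.9, 121 and 107 CPM, above all WT mice (25.4 to 46.8 CPM), with a rho of -0.07. The macrophage list took up 0.19% to 0.32% of counts against 0.13% to 0.19% in WT mice. Of its 19 members 1 followed and 1 ran against *Col1a1* (4 and 0 after TMM scaling). Of all genes, 4.39% followed and 22.1% ran against it (10.8% and 8.34% after TMM scaling). *Thbs1*, thrombospondin 1, was at 1664 to 3918 CPM, above the WT mice at 816 to 1472 CPM, with replicate 7 lowest (rho 0.36). *Cilp*, a cartilage and tendon matrix protein, lay between 4911 and 7011 CPM against 1863 to 4240 CPM in WT mice, and its rho of -0.82 by CPM was -0.64 after TMM scaling. *Vim*, the intermediate filament of fibroblasts, overlapped the WT mice, at 1477 to 2292 CPM (WT 1475 to 1865 CPM).

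Another few genes had their 2 highest values in replicates 6 and 7, and so ran across the order. The MHC class II gene *H2-Aa*, which presents antigen on dendritic cells, B cells and activated macrophages, was at 3.61, 83.3, 123, 2.25, 3.76, 6.51 and 1.55 CPM, with WT mice at 0.33 to 3.77 CPM. Its partner *Cd74*, the invariant chain, was at 241 and 407 CPM in these 2 mice and at 4.97 to 29.6 CPM in the other 5. *Mmp13*, an interstitial collagenase, was at 1307 and 538 CPM in replicates 6 and 7 and at 1.12 to 3.69 CPM in the others, against 0.33 to 3.68 CPM in WT mice. The same 2 mice had the most *Fn1*, *Col3a1* and *Megf6*. Their library numbers, 76 and 77, were adjacent, while the other 5 carried 64 to 67 and 74, and the part of any difference in handling was not tested.

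RNA of other tissues was present at different levels in the 7 mice. Skeletal muscle genes took up 0.03%, 0.10%, 2.03%, 0.21%, 0.18%, 0.63% and 2.69% of counts in the order of *Col1a1*. By CPM 11 of 19 members ran against it, or 9 after TMM scaling, with a median rho of -0.75 and -0.71. The shares of all genes that did so were 22.1% and 8.34%. *Acta1*, skeletal actin, ranged from 9.68 to 1012 CPM. The WT mice had 0.04% to 6.85%. The WT mice with the most, replicate 5 with 6.85% and replicate 6 with 4.49%, also had the least *Col1a1* of their group, 62886 and 48480 CPM. None of the muscle genes was past the limit without replicates 1 and 5, where 15.4% of all genes were. When muscle, erythroid and mitochondrial genes were left out of the total, 517 genes followed *Col1a1* and 495 of them were among the 534. The defining keratinocyte genes *Krt5* and *Krt14*, looked up after the data had been seen, were at no more than 0.10 and 0.41 CPM. However, 4 of 5 other skin genes at 5 CPM or more ran against *Col1a1*, or 2 after TMM scaling, where 22.1% and 8.34% of all genes did. The part of muscle or skin in the order of single genes was not tested further.

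The 7 mice were next compared with the 6 WT mice by edgeR's quasi-likelihood test with Benjamini-Hochberg adjustment (FDR) over 15862 genes, of which 498 (3.14%) were higher and 534 (3.37%) lower in Fosl-2(Tg) mice. The 7 mice enter both the order and this test, so the counts describe and do not replicate the order. Of the 534 genes that followed *Col1a1*, 116 were called lower and 1 higher, and their median log2 fold change was -0.46 against 0.01 over all genes tested. Of the 2690 genes that ran against it, 177 were called higher and 13 lower, with a median of 0.11. The list of collagen hydroxylation and folding genes held 5 genes called lower among 19, tendon identity 3 lower and 1 higher among 13, and the glucocorticoid and FOXO list 8 higher among 20. The calls moved with single mice. The 116 became 39 without Fosl-2(Tg) replicate 1, 44 without replicate 2 and 58 without replicate 3, and 39, 47, 47, 58 and 65 without WT replicates 1, 2, 4, 5 and 6. The 177 became 53, 67 and 107 without the same Fosl-2(Tg) mice and 58, 54, 61, 58 and 86 without the same WT mice.

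Among the named genes, the calls for *Adamts2* (log2 fold change -1.25, standard error 0.22, FDR 0.0128 by edgeR), *Matn2*, *Pcolce*, *Loxl2* and *Ncam1* held in each of 13 fits that left out 1 mouse. So did those for *Slc39a8* (log2 fold change 3.53, standard error 0.72, FDR 0.019 by edgeR), *Unc93a2*, *Mt1*, *Thbs1*, *Htra3* and *Cd163* (log2 fold change 1.07, standard error 0.14, FDR 0.00465). The genes at the steep end of the order had wide errors. *Col1a2* (log2 fold change -2.23, standard error 0.57, FDR 0.0367 by edgeR) stayed called in 4 of these 13 fits, *Tnmd* (-2.03, standard error 0.53, FDR 0.0386) in 4, *Scx* in 4 and *Col15a1* in 2, with highest FDR values between 0.0722 and 0.0964. *Kera*, the gene with the steepest slope, was not called (log2 fold change -2.26, standard error 0.76, FDR 0.0842 by edgeR), nor was *Fmod* (-1.16, standard error 0.51, FDR 0.167). These calls depended on the tool. DESeq2 with all mice called *Col1a2* (FDR 0.000298), *Tnmd* (0.00376), *Scx* (0.00407), *Col15a1* (0.0125) and *Kera* (0.0222), but not *Fmod* (0.0722).

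The early cohort was used to ask whether the same genes go with *Col1a1* in mice that the order did not use. Early *Col1a1* levels were far higher, at 105192 to 255969 CPM in 7 WT mice and 127113 to 272220 CPM in 8 Fosl-2(Tg) mice. With genotype as a covariate, edgeR's quasi-likelihood test of the slope on log2 *Col1a1* called 332 of 15730 other genes higher (2.11%) and 87 lower (0.553%) at an FDR of 0.05. Of the 534 genes that followed *Col1a1* in the established mice, 95 were called higher with *Col1a1* in the early mice and 3 lower, or 17.8% called higher. Of the 2690 that ran against it, 28 were called lower and 5 higher. Positive early slopes were measured for 71.7% of the genes that followed, 29.0% of those that ran against *Col1a1* and 43.3% of all genes with at least 5 CPM.

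Within each early genotype alone, 1 of the 534 genes was called higher in Fosl-2(Tg) mice and none in WT mice, where edgeR called no gene at all (1337 of the genes with at least 5 CPM had an unadjusted p below 0.05). The shares of positive slopes among the 534 genes were 74.5% and 68.4% in the 2 genotypes, against 47.8% and 44.9% of all genes with at least 5 CPM.

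The collagen lists and the tendon identity list, which were alike in the established mice, gave different counts in the early mice. Of 10 fibril-forming collagens other than *Col1a1*, 4 were called higher with *Col1a1*, of 19 hydroxylation and folding genes 8, and of 7 procollagen processing genes 3, and none of these lists held a gene called lower. *Col1a2* changed by 1.10 log2 units per doubling of *Col1a1* (FDR 0.000271 by edgeR), *Adamts2* by 0.77 (FDR 0.000637), *Sparc* by 0.66 (FDR 0.00697) and *Creb3l1* by 0.75 (FDR 0.00714). Of 13 tendon identity genes none was called in either direction, and their median slope was 0.07. *Tnmd* had an early slope of -0.22 (FDR 0.749), *Kera* of 0.18 (FDR 0.86) and *Fmod* of -0.06 (FDR 0.958). The members differed: *Scx* had 0.73 (FDR 0.0829 by edgeR), near the slope of *Creb3l1* though not called, and *Comp* had -0.33 (FDR 0.667). Of 13 small leucine-rich proteoglycans none was called higher and 1 lower. A difference of slopes between the cohorts was not tested, and the cohorts also differed in age and sex.

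**Figure D5:**
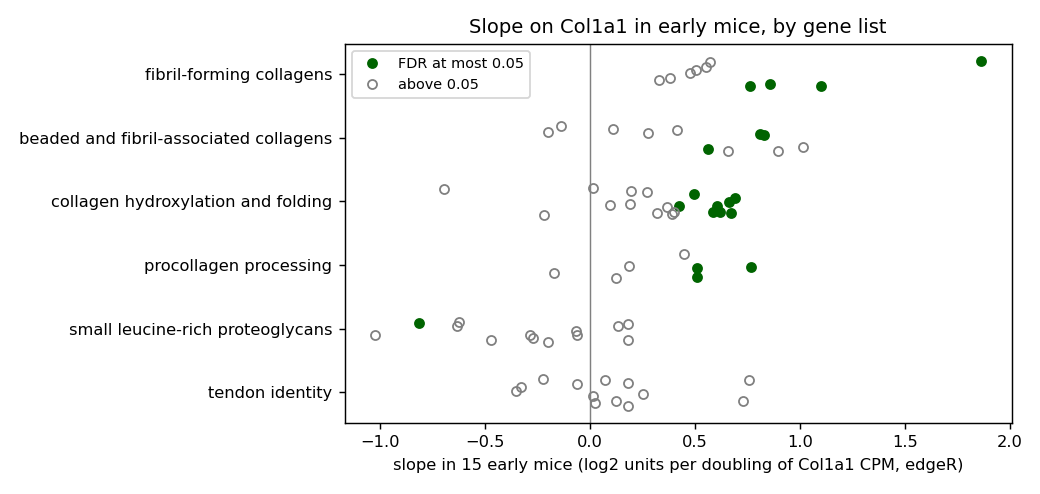
Slope on log2 *Col1a1* in the 15 early mice for the members of 6 gene lists, with genes at an FDR of at most 0.05 filled. The filled points lie to the right in the collagen lists, up to 1.86 for *Col2a1*, and no tendon identity gene is filled.

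In the 6 established WT mice, edgeR called no gene higher or lower with *Col1a1* among 16445 tested (0% in either direction), with 2550 genes at an unadjusted p below 0.05, while DESeq2 called 657. *Col1a1* had a 2.13-fold range in these 6 mice. Positive slopes were measured for 414 of the 534 genes that followed *Col1a1* in the transgenic mice (77.5%), for 37.5% of those that ran against it and for 51.6% of all genes with at least 5 CPM. The WT slope of *Col1a2* was 0.80 (FDR 0.23), that of *Tnmd* -0.70 (FDR 0.35) and that of *Adamts2* 0.66 (FDR 0.22).

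The letters TGANTCA, a binding motif of AP-1, were looked for on either strand of RefSeq promoter windows (GRCm38.p6, 250 bases before to 50 bases after the start). They were present in 30 of 367 windows of genes that followed *Col1a1* (8.17%), in 110 of 2058 windows of genes that ran against it (5.35%) in 6.14% of the windows of all genes with at least 5 CPM and in 8.97% of all 27025 windows. A match is a description of the sequence and not a binding site.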

How the data were processed

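Tail tendon RNA had been depleted of ribosomal RNA and sequenced. The authors aligned reads to GRCm39 by STAR and assigned them to genes by featureCounts, and deposited raw counts of 25719 genes. Strand setting and the treatment of reads with several positions are not given in the sources used here, so overlapping genes and near-identical copies are uncertain. Names (25505 genes) came from GENCODE M39 on the same assembly.

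CPM are counts over the library total. Spearman's rho with *Col1a1* CPM was computed over 7 mice for genes with a mean of at least 5 CPM, and slopes on log2(CPM + 0.5). Correlations over 7 points that share libraries carry no test. Fits used edgeR 4.0.16 (quasi-likelihood test, TMM scaling, filterByExpr with a minimum count of 10, FDR 0.05) in R 4.3.3, with no covariate in the comparison of genotypes and with genotype in the early slope. Alternatives were DESeq2 1.42.0 (the tool of the authors), RLE scaling, no filter, other minima, other totals, left-out mice and a replicate block. The edgeR fits and the rank correlations were checked on simulated counts.

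Mice, lists and tests were chosen with earlier results of these data known. Named genes were *Col1a1* and *Fosl2*, in each direction the 10 genes most alike in rank and the 10 steepest with a rho of at least 0.85 in size, and of each of 50 lists up to 4 members by level and up to 4 by rho, of which the text gives a part. *Scx* and *Fkbp5* were added after their values were seen, as were *Lum*, *Krt5* and *Krt14*, and *Col2a1* appears as the end of a plotted range. One gene of the lists is not reported here. Intervals for single mice would cover counting error only. P-values measure the spread between mice. Figures were drawn with matplotlib 3.10.9.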

Additional observations from a re-analysis of the deposited data

Results flagged for a closer look

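Values that stood apart from the rest of their group by Dixon's criterion at 95% were looked for in 107 named genes and 2 groups of mice, or 214 groups of 7 or 6 values in CPM, and 27 were found. Chance alone flags about 1 in 20 groups of values not chosen for their pattern. Many of these genes were chosen by their rank or slope over the same 7 mice, so this rate does not apply to them, and flags of the mouse at the end of the order are in part set by that choice. Of the 27 values, 13 belonged to Fosl-2(Tg) replicate 5, the male mouse with the least *Col1a1* and the smallest library. In this mouse *Slc39a8* (418 CPM, other 6 mice at most 67.6), *Trp53inp1* (1074, at most 328), *Fkbp5* (436, at most 201), *Sgk1* (328), *Sesn1* (201), *Cdo1* (94.9), *Adamts1* (133), *Dnah3* (32.1) and *Efcab6* (18.3) were high, as were *Ccn2* (1611, at most 770) and *Pdgfra* (510, at most 344), while *Igfbp5* (662) and *Adamts3* (46.3) were low.

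Replicate 6 stood apart in *Mmp13* (1307 CPM) and *Mfap4* (128), replicate 4 in *Cilp2* (1814, at most 766) and replicate 7 by its low *Thbs1* (1664, others at least 2993). Among WT mice, replicate 2 stood apart in *Col3a1* (2949 CPM, others at most 953), *Serpinh1* (610), *Cd74* (14) and *H2-Eb1* (2.54), replicate 6 in *Tnmd* (1617), *Rplp0* (978) and *Rpl18* (230), replicate 5 in *Sparc* (10825) and *Psmd11* (84.7) and replicate 4 in *Megf6* (116).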

How the results depend on the processing

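The count of 534 genes that followed *Col1a1* was 1287 after TMM and 1238 after RLE scaling, 858 with collagen genes out of the total, 963 with Pearson's r, 339 with a minimum of 20 CPM, 1180 without the mice farthest from the median (replicates 4 and 6) and 278 without replicates 1 and 5, an alternative chosen after seeing the data. With each mouse left out it lay between 370 (without replicate 5) and 927 (without replicate 4). The 2690 genes that ran against *Col1a1* were 990 after TMM scaling, 1059 after RLE scaling and 1696 without collagen genes, and 1879 to 3753 with each mouse left out. Order by *Col1a2* gave the same ranks.

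Of the genotype test, 1032 genes were called, 2179 by DESeq2, 560 in females, 563 without replicates 1 and 5 and 361 to 1166 with each mouse left out. Of the genes that followed, 116 were called lower, 192 by DESeq2 and 39 to 152 with each mouse left out. Of the genes that ran against *Col1a1*, 177 were called higher, 336 by DESeq2, 106 without a filter, 64 in females, 64 without replicates 1 and 5 and 53 to 236 with each mouse left out. The early slope called 419 genes, 844 by DESeq2, 1022 without the genotype term, 10 in Fosl-2(Tg) mice alone and 0 in WT mice alone. Of the genes that ran against, 28 were called lower, 66 by DESeq2, 98 without the genotype term, 1 in Fosl-2(Tg) mice and 0 in WT mice, and of those that followed 95, 1 and 0. The established WT slope called 0 genes, 657 by DESeq2. The causes were not tested.

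With the replicate number as a block, the genotype test called 914 genes, with 134 and 124 in place of the 116 and 177. The numbers do not pair the mice: correlations of same-numbered mice ranged from -0.22 to 0.69, and 2 of 6 Fosl-2(Tg) mice correlated best with their own number.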

Other observations

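Nuclear-encoded genes of the respiratory chain, which carries electrons in mitochondria, are read here against the share of all genes that ran against *Col1a1*. All 22 members at 5 CPM or more had a rho below 0, with a median of -0.70. By CPM 7 ran against *Col1a1* and after TMM scaling 2, where 22.1% and 8.34% of all genes did. Without replicates 1 and 5, 8 of 22 members were past the limit by CPM (median rho -0.65), where 15.4% of all genes were. The matrix proteinase *Adamts1*, which cleaves proteoglycans, was at 39.2, 46.7, 49.9, 39.8, 51.1, 76.2 and 133 CPM in the order of *Col1a1* (rho -0.89, and -0.79 after TMM scaling), and WT mice lay between 20.2 and 42.2 CPM. *Prg4*, lubricin, the lubricant of tendon and joint surfaces, followed *Col1a1* at 7569, 4237, 4679, 4380, 4084, 2636 and 2350 CPM (rho 0.89), against 4420 to 7049 CPM in WT mice. *Tgfbr3*, a co-receptor of TGF-beta, lay between 1023 and 2109 CPM (rho -0.86, and -0.75 after TMM scaling), with 6 mice above the WT maximum of 1151 CPM.

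The 10 most abundant genes of each library took up 15.5% of counts in replicate 4 and 8.33% in replicate 5, in exactly the order of *Col1a1*, and 18.3% to 24.5% in WT mice. Olfactory receptor genes, which are not expected in tendon, took up 0.00381% to 0.0144% of counts in the 7 mice (rho -0.86) and 0.0028% to 0.00325% in WT mice. Neither measure had been planned; both were picked with the data in view.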
